A study of Rattus norvegicus with 17 samples.

Results

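The genes described here drive cells through the division cycle and copy their DNA. They were taken as a list of 44 symbols, and each gene was read from the brightest probe set whose annotation names that gene alone. Of the 44 genes, 42 had such a probe set, out of 14217 genes measured this way on the Affymetrix Rat Genome 230 2.0 array. Rrm2 is named only on 2 probe sets that also name other genes, and Tpx2 has no listed probe set, so neither was measured. The 42 were divided into 17 replication genes, which act in G1 and S phase, and 25 mitotic genes, which act in G2 and mitosis. All 42 passed the filter on dim probe sets, which asked for an intensity above 15.476 (3.95 on the log2 scale, the median of all deposited values) on at least 5 of the 17 arrays.

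The arrays hold total RNA from whole rat liver, with 1 array per rat. The control group is 6 sham-operated rats, opened at the abdomen without ligation, that received saline. The ligated saline group is 6 rats whose bile duct was tied, which also received saline. The ligated ghrelin group is 5 rats with the same ligation that received recombinant ghrelin, a stomach peptide hormone, at 10 µg per kg per day. All rats were infused through a pump under the skin, operated on in week 7 and killed in week 9, 2 weeks after the operation. No sham rats received ghrelin, so ghrelin can be read only against ligation. The labels give no strain, sex or date, and rats are numbered within their group here only as names. In whole tissue, more cells of a type and more RNA per cell cannot be told apart. Within-group correlations between arrays lay between 0.965 and 0.985 over the probe sets that passed the filter, and no arrays were identical. The median intensity per array was 14.2 to 14.7 in sham, 16.1 to 17.5 in ligated saline and 15.4 to 16.4 in ligated ghrelin rats.

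Cells enter the cycle when D-type and E-type cyclins activate their kinases, which releases E2F transcription factors to switch on genes for DNA replication. Later the A-type and B-type cyclins with Cdk1 drive entry into mitosis, and a second set of genes builds the spindle, holds chromosomes under checkpoint control and then destroys the mitotic cyclins. Most hepatocytes of an adult liver are at rest, while bile duct ligation is a classical model in which the bile duct cells proliferate. Mitotic genes are known to share 2 promoter elements, the cell cycle genes homology region (CHR), bound by complexes that repress them in resting cells and activate them in G2, and the CCAAT box bound by NF-Y. Replication genes more often carry E2F sites.

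The promoters of 6 members are shown because the replication and mitotic members differed in these elements. Sequences are from RefSeq, build GRCr8, 150 bases upstream of the annotated gene start, written 5′ to 3′ on the gene's strand. Capitals mark each complete match in the printed stretch, on either strand, to a CHR (TTTGAA or TTCGAA), an NF-Y box (CCAAT) or an E2F site (TTTCCCGC, TTTGGCGC, TTTCGCGC or TTTGCCGC). The first 3 are mitotic: Mki67, the proliferation antigen Ki-67 (chr1:199952594-199952743, minus strand), Prc1, which bundles microtubules of the central spindle (chr1:143659331-143659480, plus strand), and Cdk1, the mitotic kinase (chr20:19265143-19265292, plus strand). The others are replication genes: Mcm6 (chr13:42404353-42404502, minus strand) and Mcm2 (chr4:122918095-122918244, minus strand), subunits of the replicative helicase, and Cdk2, the S phase kinase (chr7:1721879-1722028, minus strand).
Mki67: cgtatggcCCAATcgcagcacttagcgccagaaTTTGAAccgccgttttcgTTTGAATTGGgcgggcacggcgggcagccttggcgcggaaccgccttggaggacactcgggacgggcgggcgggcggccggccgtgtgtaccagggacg
Prc1: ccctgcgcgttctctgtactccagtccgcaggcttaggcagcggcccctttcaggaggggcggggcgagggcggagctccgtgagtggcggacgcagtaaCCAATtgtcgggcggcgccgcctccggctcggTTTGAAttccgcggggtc
Cdk1: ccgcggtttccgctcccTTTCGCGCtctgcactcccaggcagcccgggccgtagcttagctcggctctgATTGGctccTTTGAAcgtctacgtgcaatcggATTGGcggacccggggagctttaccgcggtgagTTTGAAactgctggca
Mcm6: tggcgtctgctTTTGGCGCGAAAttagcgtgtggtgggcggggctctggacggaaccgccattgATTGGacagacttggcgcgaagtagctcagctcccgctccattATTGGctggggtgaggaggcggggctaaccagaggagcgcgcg
Mcm2: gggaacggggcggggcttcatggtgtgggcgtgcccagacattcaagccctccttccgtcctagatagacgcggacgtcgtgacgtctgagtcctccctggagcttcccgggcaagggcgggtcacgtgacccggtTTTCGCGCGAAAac
Cdk2: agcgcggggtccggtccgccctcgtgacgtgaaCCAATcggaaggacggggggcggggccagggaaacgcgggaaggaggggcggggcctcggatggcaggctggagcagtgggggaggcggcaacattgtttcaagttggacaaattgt
Mki67 and Cdk1 each held 2 CHR matches and 2 NF-Y boxes in this stretch, and in Mki67 an NF-Y box on the opposite strand overlapped the second CHR. Cdk1 also held 1 E2F match. Prc1 held 1 CHR and 1 NF-Y box. Mcm6 and Mcm2 each held 2 E2F matches, on opposite strands and sharing 4 bases, and Mcm6 also held 2 NF-Y boxes. Cdk2 held 1 NF-Y box and neither a CHR nor an E2F match.

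Over the full windows of the RefSeq table, 250 bases before to 50 after the start, 34 of the 42 measured members matched by gene ID, 13 replication and 21 mitotic. Aurkb, Ccna2, Ccnd1, Ccnd2, E2f1, Foxm1, Mcm4 and Ube2c had no entry. A CHR was present in 16 of 21 mitotic promoters (76.2%), in 3 of 13 replication promoters (23.1%; Mcm2, Mcm7 and Rrm1) and in 19.5% of the 27457 promoters of all genes. The 5 mitotic promoters with no CHR match in this window were those of Aurka, Bub1, Ccnb1, Kif11 and Kif20a. An NF-Y box was present in 17 of 21 mitotic promoters (81%), 8 of 13 replication promoters (61.5%) and 37.7% of all promoters. Both elements together occurred in 14 of 21 mitotic promoters (66.7%) against 7.83% of all. E2F matches ran the other way, with 7 of 13 replication promoters (53.8%), 1 of 21 mitotic promoters (4.76%, Cdk1) and 2.25% of all promoters. The 7 were those of Mcm2, Mcm3, Mcm5, Mcm6 and Mcm7, of the licensing inhibitor Gmnn and of thymidylate synthase, Tyms. The 21 CHR matches in mitotic promoters began at a median of 29 bases before the gene start, and 13 of them began within the 100 bases before it. A match is only a run of letters, not a measured binding site, and 2 overlaps between different motifs were found in the members' windows.

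**Figure D1:**
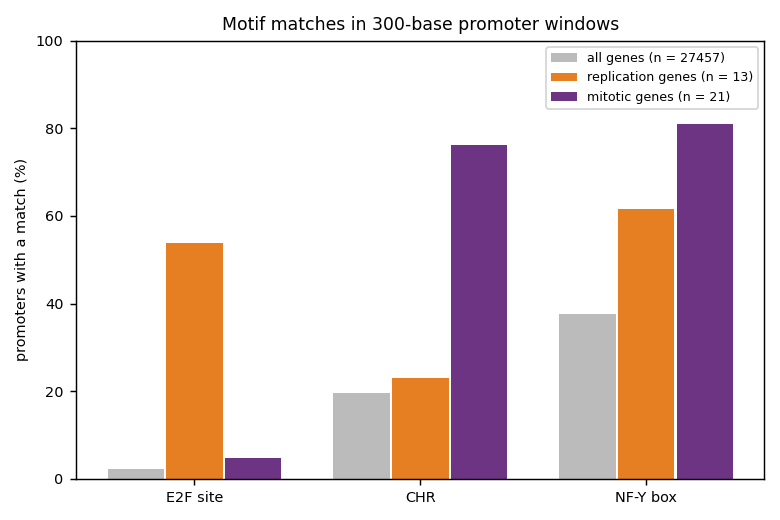
Percent of 300-base promoter windows (y axis, 0 to 100) with at least 1 match to an E2F site, a CHR or an NF-Y box, for all genes (grey, n = 27457), replication members (orange, n = 13) and mitotic members (purple, n = 21). The CHR bar is tallest for the mitotic members (76.2%), and the E2F bar is tallest for the replication members (53.8%).

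Among the mitotic members, the 16 with a CHR match had a median log2 change after ligation of 2.86 and the 5 without had 3.74. Among replication members, the 7 with an E2F match had a median of 2.30 and the 6 without had 1.07. That split largely follows role: the 7 were Mcm genes, Gmnn and Tyms. The 6 without were Cdk4, Pcna, Rrm1, Tk1, and Ccne1 and Cdk2, which did not rise. Among replication genes of the longer list described below, the medians were 1.11 with an E2F match and 0.73 without. These medians are given as a description, with no test.

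Bile duct ligation raised nearly the whole set. In ligated saline against sham rats, 40 of 42 genes rose, Cdk2 fell and Ccne1 was not called (limma, Benjamini-Hochberg adjusted p under 0.05 over 15965 kept probe sets). In that comparison 34.2% of all kept probe sets were called higher and 27.3% lower. The median log2 change was 2.43 over the members, a fold of 5.38, against 0.04 over all kept probe sets. For 37 members every ligated saline rat lay above every sham rat, and for Cdk2 every one lay below, where the shares of all kept probe sets without overlap were 22.8% and 18.1%. Among replication genes, E2f1 and Mcm3 were below the filter level in all 6 sham rats. So were the mitotic genes Plk1, Foxm1, Kif11, Kif20a, Kif22, Prc1, Bub1b, Ube2c and Birc5. These genes passed the filter only through ligated rats, so the counts of members favour rises. The 25 mitotic genes all rose, by 1.44 to 4.54 on the log2 scale with a median of 3.02 (8.13-fold), and in none of them did the groups overlap. Of the 17 replication genes 15 rose, with a median over the 17 of 1.59 (3.02-fold).

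**Figure D2:**
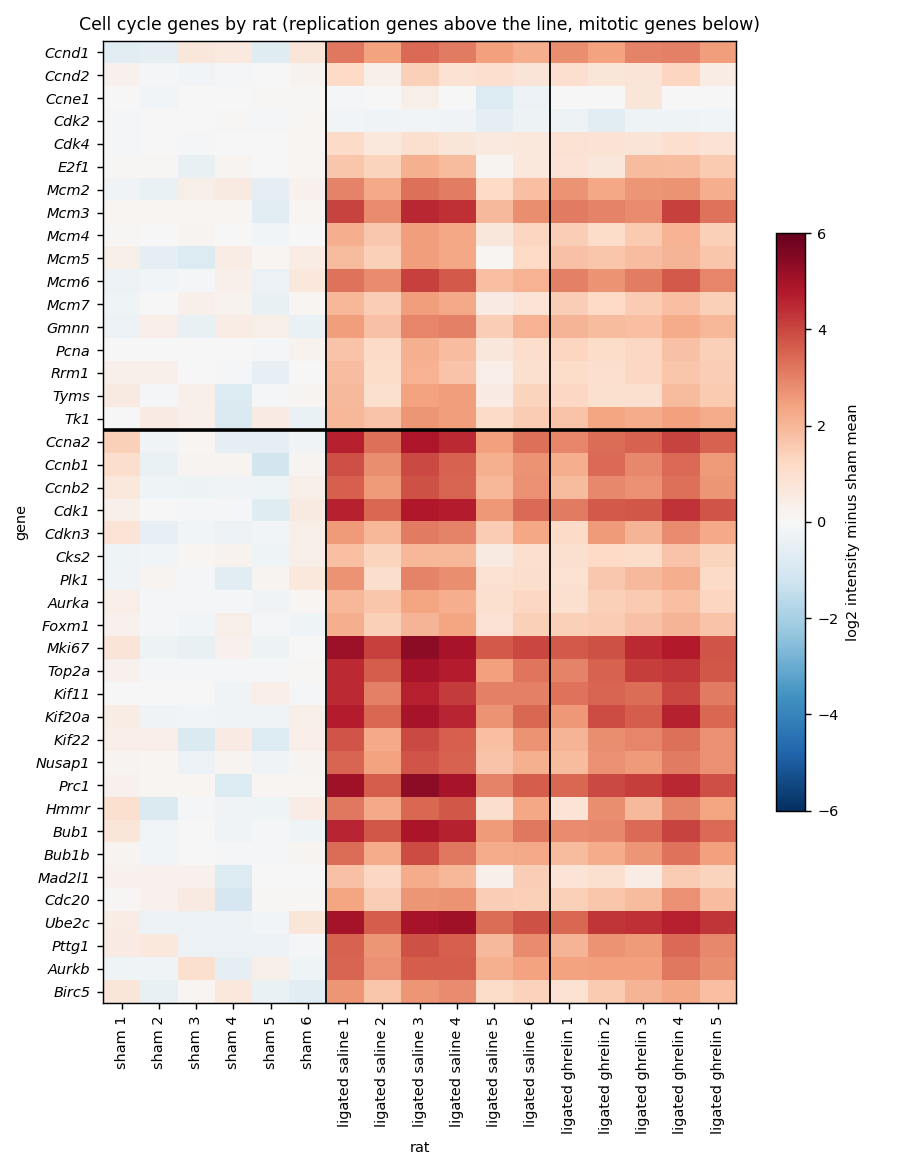
Log2 intensity of each of the 42 genes (rows) in each of the 17 rats (columns) minus that gene's mean in sham rats, as colour from blue (lower) to red (higher). Replication genes are above the thick line and mitotic genes below it, and the 11 ligated rats are red in nearly every row, palest in the rows of Ccne1 and Cdk2.

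Expression of the genes that start the cycle was the least uniform. Of the 6 drivers of G1 and S entry, 4 rose, 1 fell and 1 was not called, with a median change of 0.87. The counts for this and each later role stand beside 34.2% of all kept probe sets called higher and 27.3% lower. Ccnd1, which encodes cyclin D1, the cyclin that links growth signals to Cdk4, ranged from 8.67 to 10.10 log2 units in sham rats (median 9.41) and from 11.59 to 12.79 in ligated saline rats (median 12.20). In the ligated ghrelin rats it was 12.16, 11.80, 12.36, 12.43 and 11.90. Every ligated rat lay above every sham rat, and the rise with saline was 2.80 ± 0.292 (SE; 6.94-fold, limma adjusted p = 4.97e-07). Its other 2 probe sets rose by 2.77 and 2.94. The sham rats themselves fell into 2 levels for Ccnd1, with sham 3, 4 and 6 at 10.06, 9.97 and 10.10 and sham 1, 2 and 5 at 8.69, 8.84 and 8.67. The same 3 sham rats were the higher ones on the other 2 Ccnd1 probe sets.

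E2f1, a transcription factor that activates replication genes, was at 3.18 to 3.77 in sham rats (median 3.71), below the filter level on all 6 arrays. In ligated saline rats it ranged from 3.77 to 5.74 (median 5.12), and in ghrelin rats it was 4.47, 4.32, 5.50, 5.47 and 5.21. Ligated saline rat 5 overlapped the sham range. The change was 1.30 ± 0.301 (limma adjusted p = 0.00137), and against the filter level E2f1 was at least 1.96-fold higher. Ccnd2, another D-type cyclin, rose by 0.94 ± 0.167, and Cdk4, the kinase partner of D-type cyclins, by 0.79 ± 0.0924, with no overlap for either gene.

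Ccne1, which encodes cyclin E1, ranged from 4.33 to 4.57 in sham rats (median 4.52) and from 3.67 to 4.85 in ligated saline rats (median 4.46). Its change of -0.15 ± 0.167 did not pass the test (limma adjusted p = 0.462; after quantile normalization it was called lower, at -0.46), with a 95% interval from -0.50 to 0.21. In ghrelin rats Ccne1 was 4.50, 4.50, 5.24, 4.50 and 4.50, and the value 4.4962 was shared by 4 of the 17 arrays. Cdk2, the kinase that cyclin E and later cyclin A activate, ranged from 7.40 to 7.64 in sham (median 7.52), from 6.93 to 7.35 in ligated saline rats (median 7.31), and stood at 7.21, 6.87, 7.27, 7.25 and 7.32 in ghrelin rats. The ligated rats were all below the sham rats. Cdk2 fell by 0.27 on the log2 scale (SE 0.0905, limma adjusted p = 0.0165), a fold of 0.83, and its second probe set fell by 0.62. The other E-type cyclin, Ccne2, is not on the list of 44 and was chosen for mention after its value was seen. It rose by 1.48 ± 0.304 (2.78-fold, limma adjusted p = 0.000493), with overlap between ligated saline and sham rats.

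The 7 genes of origin licensing and the helicase all rose, with a median change of 2.30. The MCM proteins form the hexamer that is loaded at replication origins and unwinds DNA. Mcm3 ranged from 2.31 to 3.07 in sham rats (median 3.06), below the filter level on every array, and from 4.89 to 7.45 in ligated saline rats (median 6.38). Its ghrelin values were 6.07, 5.93, 5.78, 7.01 and 6.18. No ligated rat overlapped the sham rats, and the change was 3.42 ± 0.372 (limma adjusted p = 7.67e-07), at least 5.29-fold against the filter level. Mcm6 went from 5.20 to 6.16 in sham rats (median 5.45) to 7.37 to 9.67 with ligation and saline (median 8.61), a change of 2.97 ± 0.327 (7.82-fold, limma adjusted p = 9.01e-07). With ghrelin Mcm6 was 8.59, 8.26, 8.64, 9.24 and 8.49, also above every sham rat. Mcm2 rose by 2.45, Mcm4 by 1.76, Mcm5 by 1.59 and Mcm7 by 1.59. Ligated saline rat 5, at 6.03, lay within the sham range of Mcm5, which reached 6.37. Gmnn, whose product geminin blocks relicensing of origins, rose by 2.30 from a sham mean of 4.30, with 3 of 6 sham rats below the filter level.

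The 4 measured genes of the replication clamp and nucleotide supply rose by smaller amounts, with a median of 1.52. Tk1, thymidine kinase, ranged from 5.26 to 6.63 in sham (median 6.25), from 7.29 to 8.76 in ligated saline rats (median 7.97), and was 7.82, 8.52, 8.36, 8.57 and 8.33 with ghrelin. Its groups did not overlap, and it rose by 1.92 ± 0.268 (3.78-fold, limma adjusted p = 1.13e-05). Tyms, which makes thymidylate, ranged from 4.27 to 5.64 in sham (median 5.11) and from 5.57 to 7.61 with saline (median 6.72). Its lowest ligated saline rat lay just under the highest sham rat, and the rise was 1.61 ± 0.326 (limma adjusted p = 0.00041). Tyms was 6.34, 6.03, 6.03, 7.00 and 6.64 in the ghrelin rats. Pcna, the sliding clamp of DNA polymerase, rose by 1.42 and Rrm1, the large subunit of ribonucleotide reductase, by 1.35.

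**Figure D3:**
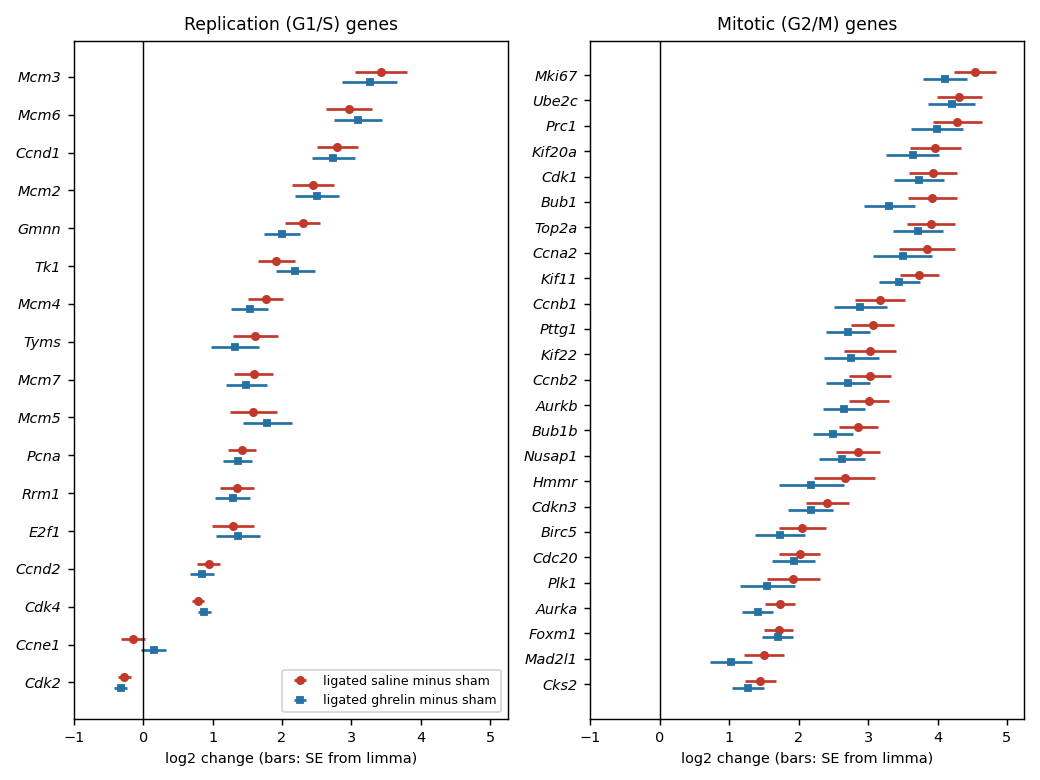
Log2 change from sham (x axis) of the 17 replication genes (left) and 25 mitotic genes (right), for ligated saline (red circles) and ligated ghrelin rats (blue squares), each point an estimate over 6 or 5 rats against the same 6 sham rats and each bar 1 SE from limma. All mitotic genes lie right of 0, and among replication genes only Cdk2 and, with saline, Ccne1 lie left of it.

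Among mitotic genes the kinases, cyclins and regulators of entry were all higher, 9 of 9, with a median change of 2.41. Cdk1, the kinase that drives mitosis, ranged from 3.80 to 5.09 in sham rats (median 4.52, 1 rat below the filter level), from 7.13 to 9.34 in ligated saline rats (median 8.58), and was 7.66, 8.24, 8.26, 8.86 and 8.33 in ghrelin rats. It rose by 3.93 ± 0.347 (15.2-fold, limma adjusted p = 8.14e-08). Ccna2, cyclin A2, which pairs with Cdk2 and Cdk1, ranged from 4.14 to 6.16 in sham (median 4.55) and from 7.22 to 9.60 with saline (median 8.64). The change was 3.85 ± 0.402 (14.4-fold, limma adjusted p = 5.05e-07), and the ghrelin rats had 7.69, 8.11, 8.30, 8.81 and 8.30. For both genes the lowest ligated rat was above the highest sham rat, although sham 1 at 6.16 stood above the other sham rats for Ccna2, which reached 4.87. The B-type cyclins Ccnb1 and Ccnb2 rose by 3.17 (1 sham rat below the filter level) and 3.02, and Cdkn3, a phosphatase that acts on Cdk1 and Cdk2, by 2.41. Smaller rises were those of Plk1 (1.92, at least 2.04-fold) and Aurka (1.73), kinases of spindle assembly, of Foxm1 (1.71), a transcription factor for G2 genes, and of Cks2 (1.44), a subunit that docks on Cdk1. Foxm1 was below the filter level on every sham array, and the ligated saline mean of 3.96 only reached that level, so its fold has no useful bound.

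The largest change of the set was that of Mki67, which coats mitotic chromosomes and is the usual histological marker of cycling cells. Mki67 ranged from 4.003 to 5.23 in sham (median 4.30), from 8.11 to 9.81 in ligated saline rats (median 8.95), and was 8.13, 8.25, 8.92, 9.21 and 8.23 in ghrelin rats. The 11 ligated rats all lay far above the 6 sham rats, and the change was 4.54 ± 0.304 (23.3-fold, limma adjusted p = 4.26e-09). Top2a, the topoisomerase that untangles sister chromatids, ranged from 4.28 to 4.67 in sham (median 4.36) and from 6.88 to 9.35 with saline (median 8.46), with ghrelin values of 7.37, 7.97, 8.54, 8.66 and 8.12. It rose by 3.90 ± 0.345 (14.98-fold, limma adjusted p = 8.21e-08), and its second probe set rose by 2.84.

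The 6 measured spindle motors and microtubule proteins rose with a median of 3.38. Prc1 ranged from 2.67 to 3.75 in sham rats (median 3.60), all below the filter level, from 6.45 to 8.86 in ligated saline rats (median 7.77), and was 6.91, 7.43, 7.63, 7.98 and 7.35 with ghrelin. Its change was 4.29 ± 0.358 (limma adjusted p = 4.59e-08), at least 13.97-fold against the filter level. Kif20a, a kinesin of the central spindle, was also below the level in all sham rats (3.09 to 3.74, median 3.12) and reached 5.99 to 8.25 with saline (median 7.32). Kif20a was 5.91, 7.20, 6.96, 7.90 and 6.74 in ghrelin rats, and it rose by 3.97 ± 0.368 (at least 9.98-fold, limma adjusted p = 1.4e-07). Kif11, the kinesin that separates spindle poles, rose by 3.74 (at least 5.58-fold), and Kif22, a chromosome-bound kinesin, by 3.03 (at least 5.50-fold). Nusap1, which binds spindle microtubules, rose by 2.85, and Hmmr, which helps to organise spindle poles and was below the filter level in 5 of 6 sham rats, by 2.66. Second probe sets of these genes rose by 2.19 for Kif11, 3.66 for Nusap1 and 3.83 for Hmmr.

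The 8 genes of the spindle checkpoint, anaphase and the chromosomal passenger complex all rose, with a median of 2.93. Ube2c, the ubiquitin-conjugating enzyme of the anaphase-promoting complex, ranged from 2.58 to 3.68 in sham rats (median 2.70), below the filter level throughout, from 6.28 to 8.03 in ligated saline rats (median 7.34), and was 6.37, 7.22, 7.32, 7.58 and 7.23 in ghrelin rats. It rose by 4.31 ± 0.324 (at least 9.84-fold, limma adjusted p = 1.44e-08). Bub1, a checkpoint kinase at kinetochores, ranged from 3.002 to 3.98 in sham (median 3.15; below the filter level in 5 of 6 rats) and from 5.82 to 8.18 with saline (median 7.40), a rise of 3.92 ± 0.351 (15.2-fold, limma adjusted p = 9.21e-08). Neither gene overlapped between sham and ligated rats. The anaphase inhibitor securin, Pttg1, rose by 3.06, and the checkpoint protein Bub1b by 2.86 (at least 5.15-fold). Aurkb and Birc5 (survivin), members of the passenger complex, rose by 3.01 and 2.05 (at least 2.45-fold for Birc5). Cdc20, the activator of the anaphase-promoting complex, below the filter level in 4 of 6 sham rats, rose by 2.01 on its brightest probe set and by 3.54 on another. Mad2l1, the checkpoint protein Mad2, rose by 1.50.

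**Figure D4:**
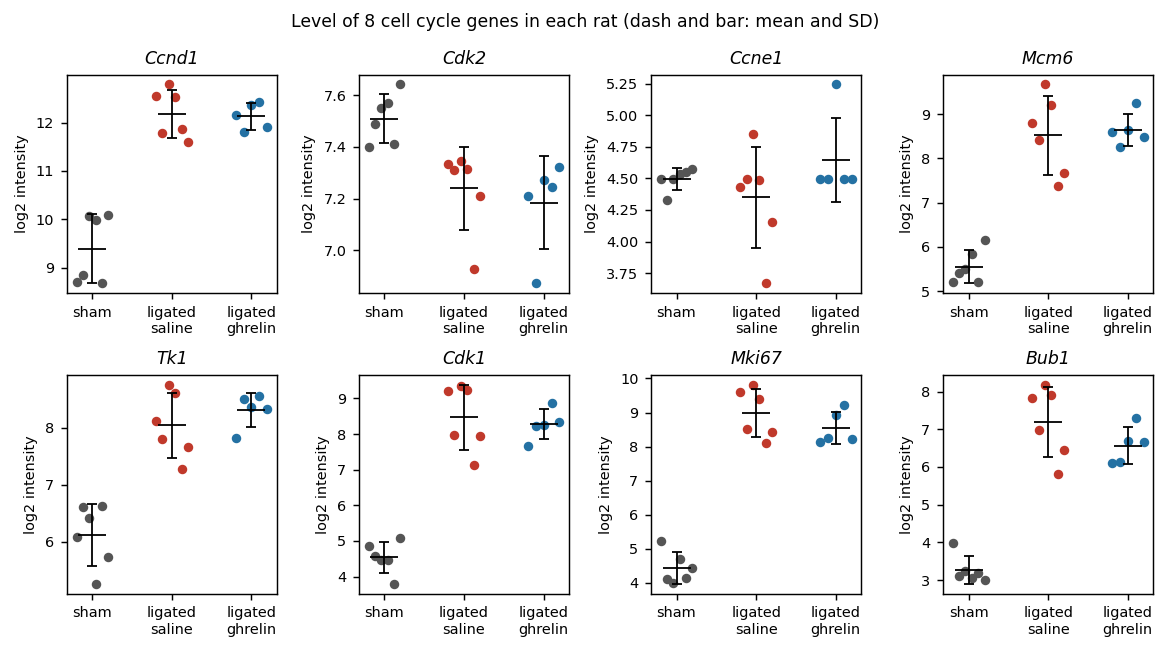
Log2 intensity (y axis, each panel on its own scale that does not start at 0) of 8 genes in each sham (grey, n = 6), ligated saline (red, n = 6) and ligated ghrelin rat (blue, n = 5), with a dash at the mean and a bar of 1 SD to each side. Ccnd1, Mcm6, Tk1, Cdk1, Mki67 and Bub1 show ligated rats above all sham rats, Cdk2 shows them below, and Ccne1 shows overlapping groups.

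By class median, the mitotic genes rose further than the replication genes in every ligated rat. Single genes of the classes overlapped, with changes after ligation of 3.42 for the replication gene Mcm3 and 1.44 for the mitotic gene Cks2. Sham values wholly below the filter level were more frequent among the mitotic genes named above, which limits how exactly the class difference is known. Taking in each rat the median, over the genes of a class, of the difference from the sham mean, the mitotic class stood at 1.98 to 3.82 in the 6 ligated saline rats and the replication class at 0.66 to 2.50. The mitotic median exceeded the replication median in 11 of 11 ligated rats. The class medians of the fitted changes differed by 1.43. Taken within each ligated saline rat instead, the mitotic median minus the replication median had an SD of 0.171 over these rats. The spread among ligated saline rats was shared by the whole set. Rat 5 was the lowest for 38 of 42 genes and rat 3 the highest for 33. Rats 1, 3 and 4 were the 3 highest for 40 of 42 genes, all 25 mitotic and 15 replication genes, with Ccnd2 and Ccne1 as the exceptions. Of all kept probe sets, 8.16% had these 3 rats highest and 6.16% had them lowest. Since the genes share these rats, they do not count as separate tests of the change. Among ghrelin rats, rat 4 was the highest for 37 of 42 genes and rat 1 the lowest for 23 of 25 mitotic genes, whereas the replication genes had rat 2 lowest most often, 10 of 17.

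**Figure D5:**
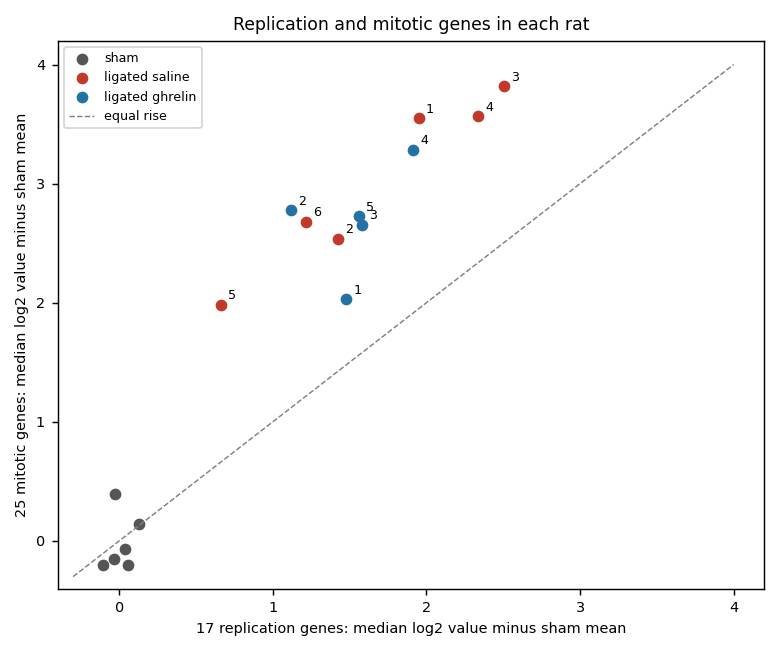
For each rat, the median over 17 replication genes (x axis) and over 25 mitotic genes (y axis) of the log2 value minus the sham mean, with the rat's number beside each ligated rat and a dashed line of equal rise. The 11 ligated rats lie above the line, the 6 sham rats lie near 0 on both axes, and ligated saline rats 1, 3 and 4 lie farthest up.

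Whether ghrelin altered this response was asked by setting the 5 ligated ghrelin rats against the 6 ligated saline rats. No member was called in either direction by limma, none had an unadjusted p under 0.05, and the lowest adjusted p was 0.342. Of all kept probe sets 1.32% were called higher and 0.908% lower, and 3393 had an unadjusted p under 0.05. No member separated the groups without overlap, against 2.39% of kept probe sets higher and 2.02% lower. All 25 mitotic genes had a lower mean with ghrelin, by 0.02 to 0.62 on the log2 scale, with a median of -0.32 (0.803-fold), and 24 of 25 did after quantile normalization or with array medians set equal, Foxm1 being the exception. Of the replication genes 10 were lower and 7 higher in mean, with a median of -0.06. Over all kept probe sets 53.5% had a lower mean and the median was -0.02. The count of lower mitotic means moved with single rats: it was 20 of 25 without ghrelin rat 1, with a median of -0.12, and 21 of 25 without saline rat 3, with a median of -0.13.

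The 5 members with the lowest p in that comparison were Ccne1, Bub1, Mad2l1, Aurka and Mki67. The Ccne1 difference was 0.30, with a 95% interval from -0.07 to 0.67. Ghrelin rat 3 was at 5.24 and the other 4 at 4.50, against a ligated saline mean of 4.35. Ligated saline rats 5 and 6 were low, at 3.67 and 4.15. Bub1 was at 6.09, 6.12, 6.68, 7.30 and 6.65 with ghrelin, inside the saline range, and differed by -0.62 (-1.40 to 0.16). Mad2l1 ranged from 5.18 to 7.13 with saline (median 6.50) and was 5.72, 5.83, 5.31, 6.42 and 6.22 with ghrelin, a difference of -0.48 (-1.13 to 0.16). Aurka ranged from 6.50 to 7.94 with saline (median 7.39) and was 6.54, 6.98, 7.12, 7.34 and 6.85 with ghrelin, a difference of -0.33 (-0.80 to 0.15). The Mki67 difference was -0.43 (-1.11 to 0.24), a fold of 0.742 with bounds of 0.464 and 1.18. The ghrelin rats lay within the range of the saline rats for Bub1, Mad2l1, Aurka and Mki67 alike. The Mki67 interval leaves room for a fall by more than a factor of 2 as well as for a small rise.

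Against the same sham rats, the ghrelin group had the same calls. In ligated ghrelin rats 40 members were higher than in sham, Cdk2 was lower and Ccne1 was not called, where 29.9% of kept probe sets were higher and 23.5% lower. For 39 members all ghrelin rats lay above all sham rats and for Cdk2 all lay below, against 20.7% and 14.9% of kept probe sets. As with saline, members below the filter level in every sham rat make these counts favour rises. Hmmr was the called gene that overlapped, with ghrelin rat 1 at 4.10 under the highest sham rat at 4.22. E2f1, Mcm5 and Tyms, which overlapped between saline and sham rats, did not overlap here. The median change over mitotic genes was 2.71 with ghrelin and 3.02 with saline, and over replication genes 1.49 and 1.59. The sham rats are common to these values, so they are given side by side.

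The rest of the pathway was read from a list of 125 other cell cycle genes, of which 108 had a probe set and 86 passed the filter. Some passed only through the ligated rats, such as Cdt1 and Orc6, below the filter level in all 6 sham rats. Genes dim in every group, such as Cdk6 and E2f7, were left out, so the counts below favour rises. In ligated saline rats 65 of 86 rose, 8 fell and 13 were not called, with a median change of 1.10, where 34.2% of all kept probe sets were called higher and 27.3% lower. Replication genes of that list had 29 higher and 3 lower of 42 (median 0.80), and mitotic genes 36 higher and 5 lower of 44 (median 1.73). The largest rises were those of Racgap1 (5.24, at least 14.2-fold) and Ect2 (4.37), which act together in cytokinesis, of Cdca3 (3.78; 5 of 6 sham rats below the filter level), which promotes mitotic entry, and of the kinetochore protein Spc24 (3.27; 4 of 6 below). The largest falls were those of Orc4 (-0.74) and Orc5 (-0.60), subunits of the origin recognition complex, of Cks1b (-0.72), a subunit that docks on cyclin-dependent kinases, and of Mad1l1 (-0.71), the checkpoint partner of Mad2. Mad1l1 was also the only one of the 86 genes called between the ligated groups, where 1.32% of all kept probe sets were called higher and 0.908% lower, so this count is near the background. It ranged from 7.48 to 8.06 in sham rats (median 7.68), from 6.76 to 7.33 in ligated saline rats and from 7.38 to 7.85 in ligated ghrelin rats, so that the ligated groups did not overlap. The ghrelin difference was 0.61 (limma adjusted p = 0.0275). In the promoter windows a CHR was present in 29 of 38 mitotic genes of that list (76.3%) and in 6 of 36 replication genes (16.7%), and an E2F match in 1 of 38 (2.63%) and 15 of 36 (41.7%).

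Markers of several liver cell types moved with ligation, and their part in the results for the cell cycle genes was not tested. The counts of calls after ligation with saline stand beside 34.2% of all kept probe sets called higher and 27.3% called lower. The 7 bile duct markers rose, 7 of 7, from a mean per array of 4.27 to 4.93 in sham to 8.82 to 10.56 in ligated saline and 9.11 to 9.81 in ligated ghrelin rats, and Cftr and Sctr were below the filter level in every sham rat. Among 9 genes that mark stellate cells and myofibroblasts, 8 were called higher and Lrat lower, with a mean per array from 6.47 to 6.91 in sham to 8.98 to 9.87 with saline and 8.66 to 9.25 with ghrelin. All 9 had a lower mean with ghrelin than with saline, and 2 of them, Col3a1 and Rgs5, were called lower. Between these ligated groups 53.5% of all kept probe sets had a lower mean and 0.908% were called lower. The 7 macrophage markers rose, from 9.32 to 10.43 in sham to 10.83 to 11.33 with saline and 10.43 to 11.10 with ghrelin. Of 11 lymphocyte markers 5 passed the filter, of which 3 rose and 1 fell, and 2 neutrophil markers of 3 passed it and rose. Of 5 endothelial markers 2 rose, 1 fell and 2 were not called, shares near the background. Hepatocyte markers, which check the tissue, stood at 14.11 to 14.35 in sham, 13.69 to 14.21 with saline and 13.82 to 14.18 with ghrelin, and 3 of 9 fell, also near the background share.

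Among the 11 ligated rats Mki67 was set against 1 marker each of 4 cell types. The other markers of these cell types were not set against Mki67, so a correlation describes that gene and not its cell type. Its Pearson correlation with Acta2, the smooth muscle actin of myofibroblasts, was 0.725 (two-sided permutation p = 0.00976, adjusted over the 4 markers 0.0390), and Spearman's rho was 0.682 (permutation p = 0.0248, adjusted 0.0991). Without the 2 rats farthest from the Acta2 median, ligated saline 1 and 3, r was 0.297 over 9 rats (permutation p = 0.442), so the relation was not seen without those rats, over a narrower range of Acta2. The 11 rats came from both ligated groups, and the permutation took no account of group. The mean with ghrelin minus that with saline was -0.46 for Acta2 and -0.43 for Mki67, neither called. Within the 6 ligated saline rats alone, r of Mki67 with Acta2 was 0.654 (exact permutation p = 0.144). The correlation of Mki67 was 0.227 with Krt19 of bile duct cells (permutation p = 0.498, adjusted 0.664; rho 0.136, p = 0.692, adjusted 0.860). It was -0.259 with Cd68 of macrophages (permutation p = 0.438, adjusted 0.664; rho -0.182, p = 0.595, adjusted 0.860). With Ptprc of leukocytes it was 0.144 (permutation p = 0.672, adjusted 0.672; rho 0.0636, p = 0.860, adjusted 0.860). None of the last 3 passed.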

How the data were processed

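Total RNA of 17 rat livers was hybridised to Affymetrix Rat Genome 230 2.0 arrays. The deposited values are linear intensities per probe set; GCRMA is the one tool named, per the submitters' processing notes, and its version is not given in the sources used here. GCRMA corrects background by probe sequence and scales arrays to each other, so dim values are the least certain. Log2 was taken here. Groups follow the labelled source. Of 31099 probe sets, 57 controls were left out and 15965 passed the filter. limma 3.58.1 (R 4.3.3) fitted 3 group means with eBayes (14 residual degrees of freedom), with Benjamini-Hochberg adjustment over kept probe sets, and was tested on simulated data. Replicates are rats, 1 array each, and their number limits the precision. Where all sham arrays were below the filter level, a fold is the ligated mean over the higher, per array, of that level and the value. The 5 members in full for ghrelin had the lowest p; other members in full were the 2 largest changes of each role and those not called or lower; of the other cell cycle genes the 4 largest rises and 4 largest falls among called genes were named. Promoter examples and motifs were chosen after values were seen. The members and lists were chosen with earlier results of these data known. Alternatives were 2 scalings, 2 filters, a pseudocount of 16, another variance model, 2 groups alone, every probe set, and leaving out each rat.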

Additional observations from a re-analysis of the deposited data

Results flagged for a closer look

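In 13 of 126 sets of 1 member in 1 group (10.3%), a single rat stood away from the rest of its group by more than Dixon's 95% critical value; chance gives about 1 in 20. Each gap below is the distance to the nearest rat as a share of the group's range, beside log2 values. The lowest sham rat stood apart for Ccne1 in sham 2 (at 4.33, nearest 4.49, gap 0.681), E2f1 in sham 3 (at 3.18, nearest 3.66, gap 0.805), Mcm3 in sham 5 (at 2.31, nearest 3.05, gap 0.981), Prc1 in sham 4 (at 2.67, nearest 3.58, gap 0.844), Mad2l1 in sham 4 (at 4.04, nearest 4.89, gap 0.766) and Cdc20 in sham 4 (at 2.81, nearest 3.90, gap 0.71). The highest sham rat stood apart for Pcna in sham 6 (at 9.65, nearest 9.44, gap 0.67), Ccna2 in sham 1 (at 6.16, nearest 4.87, gap 0.639), Kif11 in sham 5 (at 3.07, nearest 2.70, gap 0.634) and Bub1 in sham 1 (at 3.98, nearest 3.25, gap 0.746). In ligated rats the cases were Cdk2 in ligated saline 5, the lowest (at 6.93, nearest 7.21, gap 0.674), Ccne1 in ligated ghrelin 3, the highest (at 5.24, nearest 4.50, gap 0.999) and Cdk2 in ligated ghrelin 2, the lowest (at 6.87, nearest 7.21, gap 0.752). Sham 4 was the rat in 3 of the 13 cases, sham 1 and sham 5 in 2 each. The sham values of E2f1, Mcm3, Kif11 and Prc1 lie below the filter level. So do the sham values given here for Cdc20, and the nearest one for Bub1. Neither Ccne1 nor Cdk2 was among the genes that rose.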

How the results depend on the processing

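Among the 42 members, 41 were called in ligated saline against sham rats under each alternative that kept all of them, except quantile normalization, which called 42: there Ccne1 was called lower (-0.46, limma adjusted p = 0.0177). A stricter filter left 36 members, all called, and counting every probe set gave 51 called of 52. Most probe sets of the array were called in this comparison too. Of all 15965 kept probe sets, 9825 were called with the settings used and 10726 after quantile normalization. The stricter filter gave 8206 called of 12600, and no filter 22230 of 31042. No member was called between the ligated groups under any alternative run. Setting array medians equal turned the sign of 5 of those 42 uncalled differences, and leaving out each rat in turn turned it in 42 cases and kept it in 420. The Pearson correlation of Mki67 with Acta2 no longer passed after quantile normalization (0.708, adjusted permutation p = 0.0513) or with equal array medians (0.687, adjusted permutation p = 0.0722), and the cause was not tested; Spearman's rho passed after quantile normalization (0.755, adjusted permutation p = 0.0380) and not with equal medians (0.682, adjusted permutation p = 0.0988). The other cell cycle genes had 51 to 86 called, against 73 with the settings used. Over every kept probe set, the median of the ligation change went from 0.04 to -0.11 (quantile) and -0.15 (equal medians), and the higher share of calls from 55.65% to 42.05% and 39.04%, and to 27.15% with no filter. Between the ligated groups, 355 probe sets were called in all, but 118 with those groups fitted alone, 154 with no filter, 541 after quantile normalization, 564 with the pseudocount and 611 with equal medians. No paired analysis was made, because each array is a different rat and the labels give no pairing between groups. Dim sham values limit how exactly the folds of genes such as Mcm3, Prc1 and Ube2c are known, and 5 or 6 rats per group limit what can be seen of ghrelin.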
